A study of Solanum lycopersicum with 4 samples.

Results

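Pathogenesis-related (PR) proteins are defence proteins that plants make after attack by fungi, bacteria or viruses. The genes described here are 9 tomato genes of 5 such classes, chosen by gene ID from the 34675 rows of the deposited table. They are PR-1 (Solyc00g174340.1 and Solyc09g007010.1), PR-4 (Solyc01g097240.2), a glucanase (Solyc10g079860.1), chitinases (Solyc10g055800.1 and Solyc10g055810.1) and osmotin-like proteins (Solyc08g080620.1, Solyc08g080640.1 and Solyc08g080650.1). The class names belong to the ID list by which the genes were chosen. The deposited table gives no names for these rows, so the names were not checked against sequence. The digits after "Solyc" give the chromosome, 1 for PR-4, 8 for the osmotin-like genes, 9 for the second PR-1 gene and 10 for the glucanase and the chitinases. The first PR-1 gene carries the digits 00, which stand for unplaced sequence. The genome build is not given in the sources used here, and coordinates are therefore not stated.

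The libraries were made from poly(A)-selected RNA of untreated fruit of the tomato cultivar Ailsa Craig. The transgenic group carries CsMYBF1, which encodes a transcription factor of the MYB family in citrus, and holds 1 library from line D7 (replicate 1) and 1 from line C2 (replicate 2). The wild-type group holds 2 libraries without the citrus gene, here wild type 1 and wild type 2. The labels give neither the promoter of the citrus gene, nor the age of the fruit, nor the number of plants behind a library. Each transgenic line is thus a single library, and the p-values measure the spread between these 4 samples only, part of which may be technical. The citrus transcript has no row in the table, so differences between the groups are not shown to be effects of CsMYBF1.

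As background, chitinases cut chitin of fungal cell walls and glucanases of this class cut glucans of fungal walls and callose. PR-4 proteins bind chitin, osmotin-like proteins belong to the thaumatin-like class (PR-5) and are known for activity against fungi and for responding to osmotic stress, and PR-1 proteins are a widely used marker of salicylic acid signalling. In tomato, genes of these classes respond to infection and wounding and to salicylic acid, ethylene or jasmonate, and some are also active in uninfected fruit.

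Levels are given as RPKM, the reads of a gene scaled to its length in kilobases and to 1000000 reads in the library. Read totals recovered from the steps of the deposited values were 12916160 to 21403774 per library. For a gene of 1 kilobase, 3 reads make 0.14 to 0.232 RPKM at such depths. Groups were compared with limma on log2(RPKM + 1) over the 16876 genes that averaged 1 RPKM or more, with Benjamini-Hochberg adjustment over all of them and a threshold of 0.05. An exact permutation test of 2 libraries against 2 cannot go below p = 0.333, so none is given per gene. In bulk fruit, fewer cells of a type and less RNA per cell cannot be told apart.

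Of the 9 genes, 7 had reads and also passed the filter on low values, and 2 were at 0 in all 4 libraries. Wild type 2 stood apart from the other libraries for these genes. It held the highest level for 6 of the 7 genes, where it was highest for 16.5% of all tested genes. The glucanase, counted among the 6, reached the filter only through wild type 2. Among genes that averaged 1 RPKM or more in the other 3 libraries, wild type 2 was highest for 5 of 6 of these genes and for 15.6% of all 16676. Line C2 held the lowest level for 6 of the 7, where it was lowest for 21% of all tested genes. Group differences that change without wild type 2 are therefore also given without it.

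**Figure D1:**
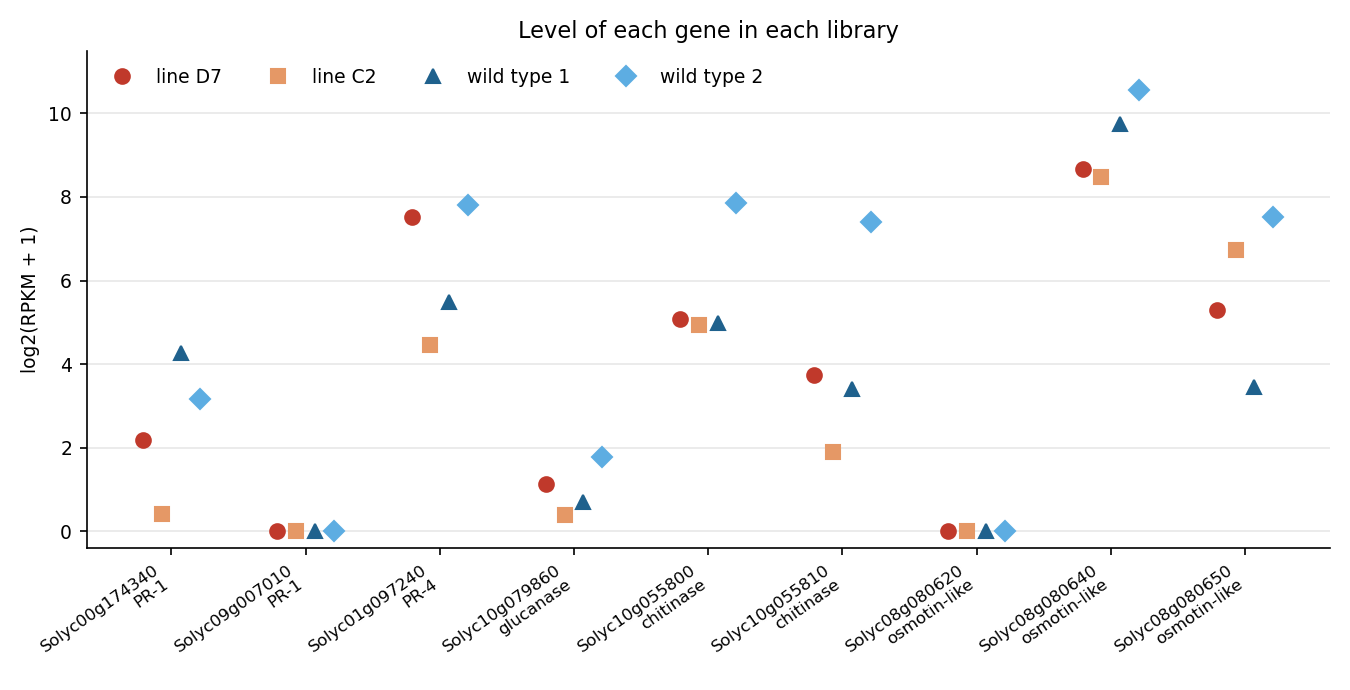
Level of each of the 9 genes on the log2(RPKM + 1) scale, with 1 point per library (2 transgenic lines and 2 wild-type libraries). Wild type 2 is the highest point for 6 genes, the first PR-1 gene is highest in wild type 1, and 2 genes lie at 0 in all 4 libraries.

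The group comparison asked whether fruit of the CsMYBF1 lines differ from wild-type fruit in these defence genes. Of the 7 genes tested, 1 was called lower in the transgenic libraries (the osmotin-like gene Solyc08g080640.1) and 0 were called higher (limma, adjusted p below 0.05). Over all tested genes, 2.09% were called lower and 18.8% higher. At an unadjusted p below 0.05, 2 of the 7 genes were lower and 0 higher, against 7.35% lower and 34.1% higher of all tested genes. The log2 fold change (transgenic minus wild type) was below 0 for 6 genes and above 0 for 1. These counts have no share over all tested genes beside them, and the 6 include the glucanase, which reached the filter only through wild type 2. In the fit without wild type 2, the PR-1 gene, Solyc10g055810.1 and Solyc08g080640.1 stayed below 0 and the others lay above. With all libraries the median was -1.41 over the 7 genes and 0.49 over all tested genes. Without wild type 2 the median of the 7 genes was 0.03. A median over all tested genes is not given for that fit, so 0.03 does not show these genes level with the rest. The groups did not overlap for 2 of the 7 genes, both lower in the transgenic libraries, and overlapped for 5. Of all tested genes, 17.4% were lower without overlap and 50.7% higher without overlap.

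The osmotin-like gene Solyc08g080640.1 was the most abundant of the 9 genes in every library. Its level was 404 RPKM in line D7, 355 RPKM in line C2, 855 RPKM in wild type 1 and 1499 RPKM in wild type 2. Both transgenic libraries lay below both wild-type libraries, and the lines lay close together while the wild-type libraries were 1.75-fold apart. In line C2, where its place was lowest, it still stood at or above 99.1% of the rows of the table. The mean was 380 ± 34 RPKM (SD, n = 2) in transgenic fruit and 1177 ± 455 RPKM (SD, n = 2) in wild type, a 3.1-fold higher wild-type mean. The group difference of -1.58 on the log2 scale (standard error 0.36) passed the test (limma, adjusted p = 0.036). The differences of the 4 pairs of a line with a wild-type library ran from -2.07 to -1.08. All are negative because the groups do not overlap, so their sign adds nothing to that. Abundant genes were often called lower in these libraries, with 17.6% called lower among the 245 genes that averaged 500 RPKM or more. The part of this gene's change that goes with its abundance was not tested. The call was lost without line D7 (adjusted p = 0.16), without line C2 (0.19) and without wild type 2 (0.09), where the log2 fold change was -1.67, -1.49 and -1.17. Nearly all of the 352 genes called lower with all 4 libraries lost that call in these fits, so the loss is not particular to this gene. With no filter and with quantile normalization, which called 0% of all genes lower, its adjusted p was 0.073 and 0.099 (limma), the latter at a log2 fold change of -0.96. Without wild type 1, where wild type 2 alone stood for the wild-type group, the log2 fold change was -1.98.

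The second osmotin-like gene with reads, Solyc08g080650.1, followed another order. It stood at 38.6 RPKM in line D7, 105 RPKM in line C2, 10 RPKM in wild type 1 and 182 RPKM in wild type 2. The lines lay between the wild-type libraries, which held both the lowest and the highest level and were 18.1-fold apart. The exact 95% counting interval of that ratio was 15.4 to 21.5, from 159 reads in wild type 1 and 1765 in wild type 2. Its log2 fold change of 0.53 (standard error 1.28) missed the threshold (limma, adjusted p = 0.78), and the wild-type mean in RPKM was 1.34-fold above the transgenic mean. The sign of the difference therefore depends on whether levels are averaged on the log or on the linear scale. It also turned with single libraries, from 2.55 without wild type 2 to -1.5 without wild type 1. This was the single gene of the 7 with more RNA in line C2 than in line D7, by 2.73-fold.

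The make-up of the osmotin-like transcripts thus differed between libraries. Of the summed RPKM of the 3 osmotin-like genes, Solyc08g080650.1 took 1.16% in wild type 1, 8.72% in line D7, 10.8% in wild type 2 and 22.8% in line C2. Solyc08g080640.1 held the rest, from 77.2% to 98.8%. The third osmotin-like gene, Solyc08g080620.1, was at 0 in all 4 libraries, as were 29.6% of the rows of the table. A count of 0 allows up to 3 reads per library, and this limit covers counting error only. Reads shared between near-identical copies may have been assigned or dropped in a way that the sources used here do not give, so a 0 beside highly expressed neighbours is uncertain.

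The chitinase genes lie next to each other by ID and were both highest in wild type 2. Solyc10g055800.1 stood at 32.8 RPKM in line D7, 29.8 RPKM in line C2, 30.5 RPKM in wild type 1 and 231 RPKM in wild type 2. In RPKM as deposited, line D7, line C2 and wild type 1 were within 1.1-fold of each other around 30 RPKM, and wild type 2 alone was high. Median-of-ratios scaling divides levels by 1.31 in line D7, 1.2 in line C2 and 0.87 in wild type 1. It would place wild type 1 above both lines. Wild type 2 was 7.55-fold above wild type 1, with an exact 95% counting interval of 6.94 to 8.24. The group difference of -1.41 on the log2 scale (standard error 0.88) missed the threshold (limma, adjusted p = 0.27). Without wild type 2 it was 0.03. Without wild type 1, where wild type 2 alone stood for the wild-type group, it was -2.84.

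Solyc10g055810.1, the neighbouring chitinase gene, stood at 12.3 RPKM in line D7, 2.72 RPKM in line C2, 9.64 RPKM in wild type 1 and 167 RPKM in wild type 2. Wild type 2 was again far above the rest, 17.3-fold over wild type 1, with an exact 95% counting interval of 15 to 20.1. Here the lines also differed, with line D7 4.52-fold above line C2, and line C2 was the lowest of the 4 libraries. In RPKM as deposited, line D7 was 1.27-fold above wild type 1. Its mean was 7.49 ± 6.75 RPKM (SD, n = 2) in transgenic fruit and 88.4 ± 111 RPKM (SD, n = 2) in wild type, so the wild-type SD exceeded the wild-type mean. The log2 fold change of -2.59 (standard error 1.31) missed the threshold (limma, adjusted p = 0.19). It was -0.60 without wild type 2 and -4.58 without wild type 1, where wild type 2 alone stood for the wild-type group. Of the summed chitinase RPKM, Solyc10g055810.1 made up 8.36% in line C2, 24% in wild type 1, 27.2% in line D7 and 42% in wild type 2, so Solyc10g055800.1 was the more abundant chitinase in each library.

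The PR-4 gene Solyc01g097240.2 split each group. Its level was 181 RPKM in line D7, 21.2 RPKM in line C2, 44 RPKM in wild type 1 and 223 RPKM in wild type 2. Line D7 and wild type 2 were high and line C2 and wild type 1 were low, so the groups overlapped. Line D7 was 8.58-fold above line C2, with an exact 95% counting interval of 7.42 to 9.96, and wild type 2 was 5.07-fold above wild type 1, with one of 4.65 to 5.53. Each line has a single library, and so the difference between the lines has no replicate check. The log2 fold change of -0.66 (standard error 1.14) missed the threshold (limma, adjusted p = 0.69). It was 0.86 without line C2 and 0.50 without wild type 2.

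The PR-1 gene Solyc00g174340.1 was the single gene of the 7 with its highest level in wild type 1. It stood at 3.56 RPKM in line D7, 0.323 RPKM in line C2, 18.2 RPKM in wild type 1 and 7.95 RPKM in wild type 2. The groups did not overlap, and both lines lay below both wild-type libraries. Behind these values stood 26, 2, 187 and 50 reads in the same order. The mean was 1.94 ± 2.29 RPKM (SD, n = 2) in transgenic fruit and 13.1 ± 7.25 RPKM (SD, n = 2) in wild type, a 6.74-fold higher wild-type mean. Its log2 fold change of -2.42 (standard error 0.69) just missed the threshold (limma, adjusted p = 0.055) and so was not called. At so low a level the value depends on the pseudocount, with a log2 fold change of -3.29 at 0.1, -1.36 at 5 and -3.34 with voom on recovered reads, none of which passed the test. Between the lines, the ratio of line D7 to line C2 was 11, and with 2 reads in line C2 its exact 95% counting interval ran from 2.76 to 95.9. The log2 fold change stayed negative without each library in turn, from -3.31 to -1.52. The other PR-1 gene, Solyc09g007010.1, was at 0 in all 4 libraries, which allows up to 3 reads in each.

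The glucanase gene Solyc10g079860.1 was the least abundant of the 7 genes by its mean over the 4 libraries. It stood at 1.21 RPKM in line D7, 0.299 RPKM in line C2, 0.632 RPKM in wild type 1 and 2.43 RPKM in wild type 2. As for PR-4 and both chitinases, wild type 2 was highest and line C2 lowest. These levels rest on 19, 4, 14 and 33 reads in the same order. The gene passed the filter by its mean of 1.14 RPKM, to which wild type 2 gave the largest share. Its log2 fold change of -0.48 (standard error 0.52) missed the threshold (limma, adjusted p = 0.51) and was 0.053 without wild type 2.

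**Figure D2:**
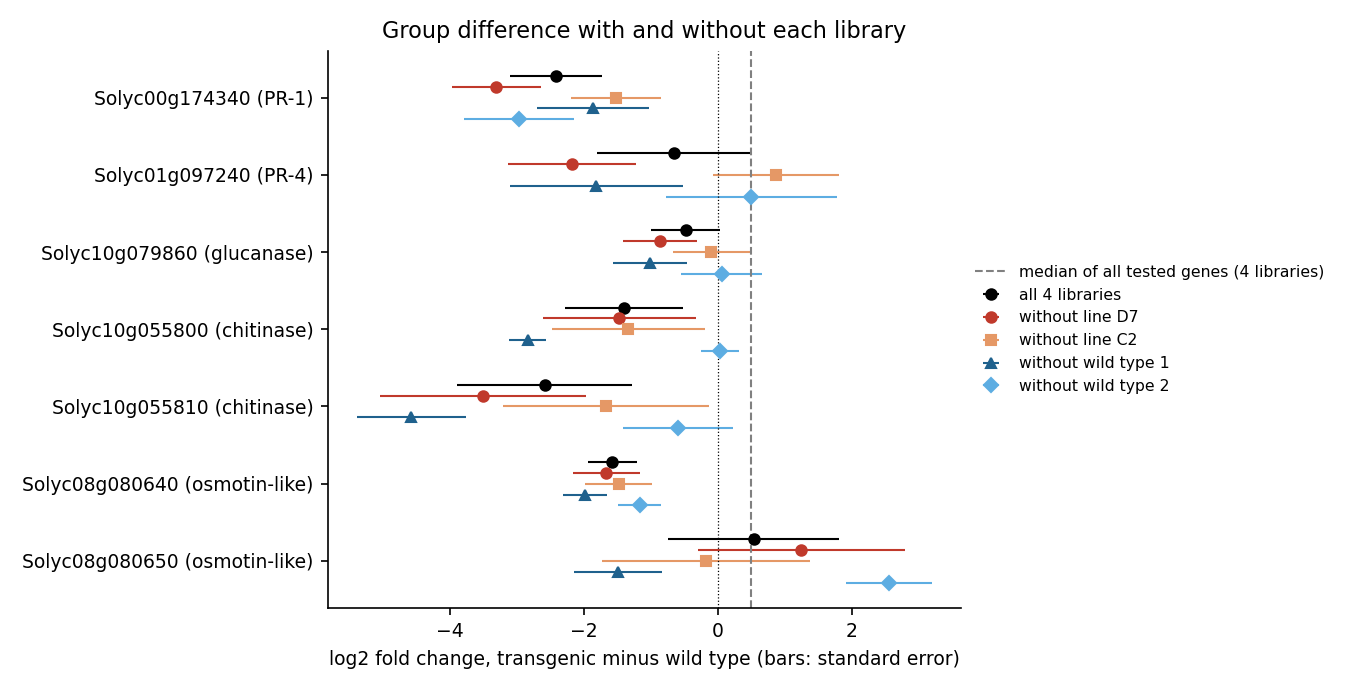
Log2 fold change on the log2(RPKM + 1) scale, transgenic minus wild type, of the 7 tested genes with all 4 libraries and without each library (bars show the limma standard error, the dashed line the median of all tested genes, 0.49). Solyc08g080640 and the PR-1 gene stay below 0 in all 5 fits, as does the chitinase Solyc10g055810, whereas the other 4 genes cross 0.

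The spread within the groups was large for these genes beside that of the table as a whole. The median absolute difference between the wild-type libraries was 2.32 on the log2(RPKM + 1) scale for the 7 genes and 0.44 for all tested genes. For 4 of the 7 genes it exceeded 1.63, the 95th percentile of all tested genes, and for 5 of the 7 it was larger than the group difference. The last count has no share over all tested genes beside it. Wild type 2 was at least 4-fold above wild type 1 for PR-4, both chitinases and Solyc08g080650.1, so for 4 of the 7 genes, against 4.34% of all tested genes. The reverse, wild type 1 at least 4-fold above wild type 2, was found for 0 of the 7 and for 2.47% of all tested genes. Over all tested genes the median difference, wild type 2 minus wild type 1, was -0.23 and so had the opposite sign to 6 of the 7 genes.

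Between the lines the median absolute difference was 1.42 for the 7 genes and 0.31 for all tested genes. Line D7 was at least 4-fold above line C2 for the PR-1 gene, PR-4, the glucanase and Solyc10g055810.1, so for 4 of the 7 genes, against 3.32% of all tested genes. Line C2 was at least 4-fold above line D7 for 0 of the 7 and for 1.27% of all tested genes. Solyc10g055800.1 and Solyc08g080640.1 differed little between the lines, by 1.1-fold and 1.14-fold. For the glucanase that ratio, 4.03, rests on 19 and 4 reads, with an exact 95% counting interval of 1.34 to 16.3. For Solyc10g055810.1 the ratio of 4.52 rests on 181 and 34 reads, with an exact 95% counting interval of 3.12 to 6.72. The intervals of the PR-1 gene, the glucanase and Solyc10g055810.1 thus reach below 4-fold, and that of PR-4 does not. By the measured ratios, PR-4 and Solyc10g055810.1 were at least 4-fold apart within both groups.

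**Figure D3:**
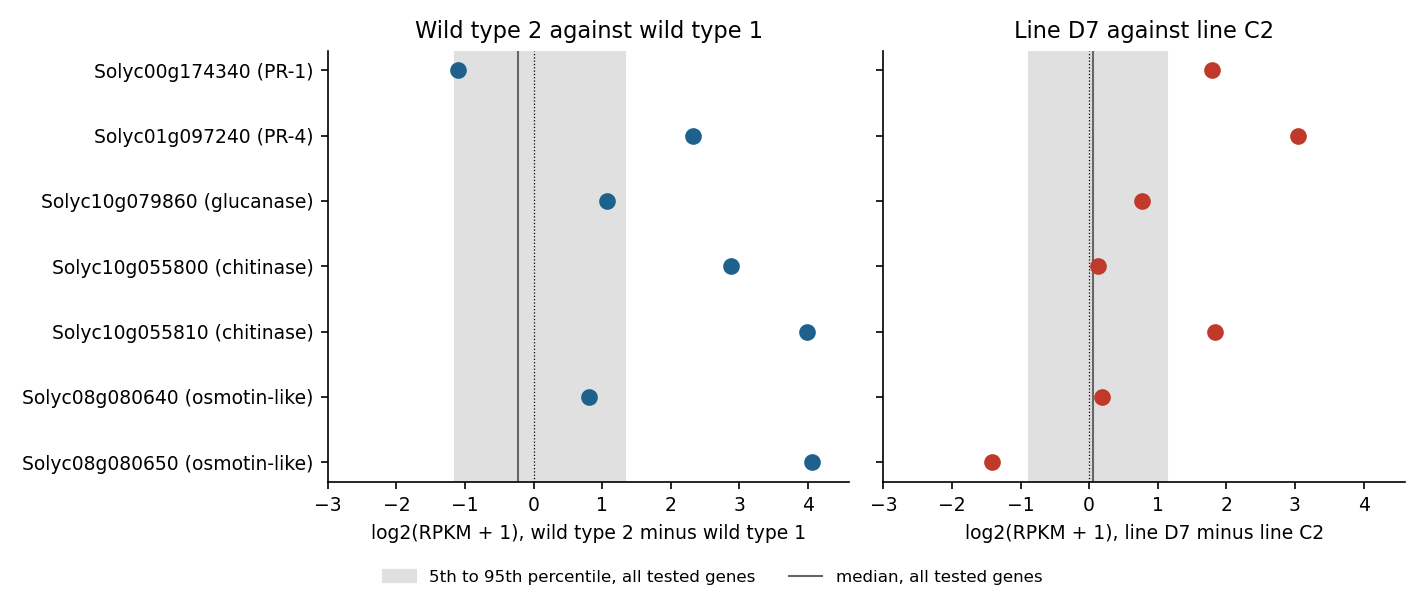
Difference between the wild-type libraries (left) and between the transgenic lines (right) on the log2(RPKM + 1) scale for the 7 tested genes, with the 5th to 95th percentile (grey band) and the median (line) of all 16876 tested genes. PR-4, both chitinases and Solyc08g080650 lie right of the band on the left, and the PR-1 gene, PR-4 and Solyc10g055810 lie right of it on the right, where Solyc08g080650 lies left of it.

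Both lines lay below wild type 2 for all 7 genes, as they did for 25.7% of all tested genes. The glucanase, counted among the 7, reached the filter only through wild type 2, which favours such a place. The share among genes that pass the filter without wild type 2 is not given here. Against wild type 1 the lines differed from each other, since line D7 was lower for 2 of the 7 genes and line C2 for 6. These counts have no share over all tested genes beside them and describe the 7 genes only. Ratios to wild-type levels depended on wild type 2. Solyc08g080640.1 was at 0.343-fold of the wild-type mean in line D7 and 0.302-fold in line C2, and at 0.472-fold and 0.416-fold of wild type 1 alone. Solyc10g055800.1 was at 0.251-fold and 0.228-fold of the mean, but at 1.07-fold and 0.976-fold of wild type 1. PR-4 was at 1.36-fold and 0.158-fold of the mean, and at 4.12-fold and 0.481-fold of wild type 1. Solyc10g055810.1 was at 0.139-fold and 0.0307-fold of the mean, and at 1.27-fold and 0.282-fold of wild type 1. Its direction in line D7 thus turned in RPKM as deposited. Median-of-ratios scaling divides levels by 1.31 in line D7, 1.2 in line C2 and 0.87 in wild type 1. The ratios to wild type 1 would be lower after it, and those near 1 depend on the scaling. The ratios of both lines share the same wild-type libraries.

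Summed over the 9 genes, the level was 673 RPKM in line D7, 515 RPKM in line C2, 968 RPKM in wild type 1 and 2312 RPKM in wild type 2. These genes took 0.0801%, 0.0629%, 0.0909% and 0.206% of the summed RPKM of the libraries in the same order. The osmotin-like genes made up most of each sum, with 442, 461, 865 and 1681 RPKM. The chitinases together held 45 RPKM in line D7, 32.5 RPKM in line C2, 40.2 RPKM in wild type 1 and 398 RPKM in wild type 2. In RPKM as deposited, the chitinase sum thus lay at a like level in the lines and wild type 1 and was high in wild type 2 alone. Median-of-ratios scaling would place the sum of wild type 1 above both lines. Solyc10g055800.1 made up most of it. Solyc10g055810.1 was less even, with 12.3 RPKM in line D7, 2.72 RPKM in line C2 and 9.64 RPKM in wild type 1.

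**Figure D4:**
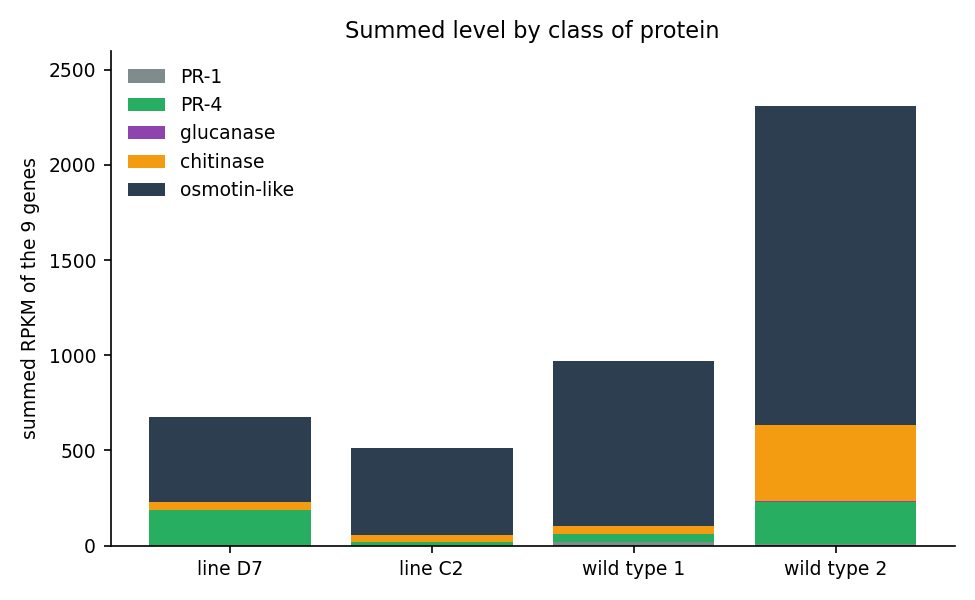
Summed RPKM of the 9 genes in each library, stacked by class of protein, with 1 bar per library. The sum runs from 515 RPKM in line C2 to 2312 RPKM in wild type 2, mostly osmotin-like, and the PR-1 and glucanase layers are too thin to see.

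By the root mean square difference of their centred log2(RPKM + 1) profiles over the 4 libraries, Solyc08g080640.1 and the glucanase were nearest to each other, at 0.59. The chitinase Solyc10g055810.1 was nearest to its neighbour Solyc10g055800.1, at 0.93, and PR-4 was nearest to the glucanase, at 0.92. The PR-1 gene was nearest to Solyc08g080640.1, at 0.98. Solyc08g080650.1 was the farthest from any other of the 7, with Solyc10g055800.1 nearest at 1.19. The glucanase had few reads, and log2(RPKM + 1) understates changes at its level, so its small distances are no sign of a like profile. Its log2 fold change of -0.48 was -0.92 with a pseudocount of 0.1 and -0.17 with one of 5. With 4 libraries these distances describe the levels above and add no test.

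Gene length moved with the group difference in these libraries, so the fold changes were set beside those of genes of like length, within a factor of 1.2. For genes as long as the PR-1 gene (480 bases) the median log2 fold change was -0.36, and those as long as the chitinase Solyc10g055810.1 (969 bases) had one of 0.012. The PR-1 gene itself was at -2.42 and this chitinase at -2.59. The length recovered for Solyc08g080640.1 was 372 bases, a lower limit if its true reads and length share a factor, and genes of that length had a median of -0.28, against its own -1.58. After a loess correction for gene length its log2 fold change was -1.49 and the call was lost (limma, adjusted p = 0.13), in a fit that called 0% of all tested genes lower.

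The rows next to these genes by ID, those that share the first 4 digits of the gene number, gave 35 other IDs, which the table leaves unnamed. Of the 23 tested, 6 were called higher and 1 lower (limma), with a median log2 fold change of 0.46, and wild type 2 was highest for 5. Over all tested genes, 18.8% were called higher and 2.09% lower, and wild type 2 was highest for 16.5%. Of the 6 called higher, 4 lie near PR-4 by ID. The largest changes called were in Solyc01g097200.1 (log2 fold change 2.35, limma adjusted p = 0.031) and Solyc01g097210.2 (2.21, limma adjusted p = 0.033), both higher and both near PR-4. The 1 called lower was Solyc10g079810.1, near the glucanase (-1.85, limma adjusted p = 0.031). Both lines were low in it, with 19.5 RPKM for D7 and 17.8 RPKM for C2, while wild type 1 had 65.6 RPKM and wild type 2 had 73.8 RPKM.

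A pair of unnamed neighbours was picked after their values were seen. Solyc08g080630.2, which lies between the osmotin-like genes by ID, stood at 133 RPKM in line D7, 71.2 RPKM in line C2, 139 RPKM in wild type 1 and 419 RPKM in wild type 2. Solyc01g097270.2, near PR-4, stood at 3.51 RPKM in line D7, 1.38 RPKM in line C2, 0.37 RPKM in wild type 1 and 25.7 RPKM in wild type 2. Both were highest in wild type 2, and neither passed the group test (limma, adjusted p = 0.15 and 0.64). The picking followed these values, so the high level of the pair in wild type 2 adds nothing to the counts above. Among the other 6 neighbours tested near PR-4, wild type 2 was highest for 1. Of the 4 neighbours tested near the osmotin-like genes, it was highest for 1, which is Solyc08g080630.2 itself.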

How the data were processed

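The authors deposited 1 table of RPKM values per gene and library, in which HTSeq is named as a tool per the submitters' processing notes. Not given in the sources used here are the aligner, the build, the annotation release, the strand setting and how reads with several matches were handled. Columns were matched to samples by line name or replicate number. The 9 genes, their classes and the tests were chosen with earlier results of these data known. All 9 are named with their values. Of neighbours by ID, at most 2 called in each direction are named, by size of change. A further pair of neighbours, neither of them called, was picked after its values were seen.

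Library totals, lengths from 60 to 20000 bases and reads were recovered from the steps of the RPKM values, within 0.001 reads. This solved 24420 of 24422 genes above 0, and 9.83% of 3000 genes with wrong totals. Recovered lengths and reads are lower limits. limma 3.58.1 in R 4.3.3 (eBayes with a trend) was fitted to log2(RPKM + 1), which understates changes of low genes, for genes that averaged 1 RPKM or more. Counting intervals are exact conditional binomial intervals at 95%, and they and the floor of 3 reads cover counting error only. The recovery and the fit were tested on simulated data. Alternatives were other pseudocounts, filters, scalings and eBayes settings, voom on recovered reads, a length correction (loess, span 0.3), the replicate block and leaving out each library. No gene sequence was used here.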

Additional observations from a re-analysis of the deposited data

How the results depend on the processing

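Counts of called genes among the 7 tested depended on the setting. The 1 called lower, Solyc08g080640.1, became 0 with no filter, with quantile normalization, with the length trend removed and with the replicate block. The adjusted p of that gene (limma) was 0.073, 0.099, 0.13 and 0.072 in these settings, with log2 fold changes of -1.58, -0.96, -1.49 and -1.58. It stayed called with both other pseudocounts, the stricter filter, median-of-ratios scaling (adjusted p = 0.049), voom and eBayes without a trend. Leaving out each library in turn gave 0 to 3 genes called lower and 0 called higher. These fits leave 1 library in a group, taken to vary as the other group does. The share of all tested genes called lower, 2.09%, became 0% with no filter, 0% with quantile normalization, 0% with the length trend removed, 3.34% with a minimum mean of 5 RPKM and 5.49% with median-of-ratios scaling. The share called higher, 18.8%, became 0.045%, 0.101%, 0.107% and 2.95% with no filter, quantile normalization, the length trend removed and median-of-ratios scaling. Without single libraries these shares ran from 0% to 2.67% and from 0.0356% to 19.9%. The cause was not tested.

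Replicate numbers mark no shared plant or day in the labels, and deviations of same-numbered libraries correlated at -0.16 across genes. With the replicate block, 0 of the 7 genes were called, and 0% of all tested genes were lower and 0.142% higher. The crossed block, chosen after seeing the data, gave 3 of the 7 genes lower and 4.84% of all tested genes lower.

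Solyc08g080650.1 changed sign to -0.10 with median-of-ratios scaling, to -0.18 without line C2 and to -1.5 without wild type 1. PR-4 (Solyc01g097240.2) changed to 0.86 without line C2 and 0.50 without wild type 2. The glucanase (Solyc10g079860.1) and Solyc10g055800.1 changed to 0.053 and 0.032 without wild type 2. Leaving out each library in turn gave -2.18 to 0.86 for PR-4, -1.02 to 0.053 for the glucanase, -2.84 to 0.032 for Solyc10g055800.1 and -1.5 to 2.55 for Solyc08g080650.1. The PR-1 gene, Solyc10g055810.1 and Solyc08g080640.1 kept a negative sign in all 15 alternatives. With median-of-ratios scaling the summed level was 515, 427, 1113 and 3107 RPKM in line D7, line C2, wild type 1 and wild type 2. Depth limits the PR-1 gene and the glucanase, with 2 and 4 reads in line C2.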
